A study of Mus musculus with 8 samples.

Results

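The regions described here are the broad merged anchors of an H3K27ac HiChIP data set from mouse embryonic stem cells. An anchor is a stretch of adjacent 5-kb bins that take part in loops, and a loop is a pair of anchors with the number of read pairs that join them. Some loops have both ends in the same anchor, so their read pairs lie wholly inside it. Members were chosen by width: they are the inside loops whose anchor measured 30 kb or more, 1002 of the 4913 inside loops, out of 415681 loops and 30044 anchors in all. All libraries share 1 anchor map. The rule that merged bins into anchors is not given in the sources used here and may have used contacts of these libraries, so widths and contact levels are given as description, with no test.

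HiChIP ligates DNA ends that are near each other in the nucleus and then enriches fragments that carry a chosen histone mark. Acetylation of lysine 27 on histone H3 marks active enhancers and promoters, and long runs of it cover clustered enhancers, often called super-enhancers, and the bodies of strongly transcribed genes. In embryonic stem cells such runs are known at genes of the naive pluripotency network, including Klf2, Esrrb and Pou5f1. Contacts inside a single acetylated domain are short, from one part of the domain to another, while loops between anchors join a promoter to an enhancer or another promoter further away.

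The study profiled 4 embryonic stem cell lines, each with 2 technical replicate libraries, all grown in serum with LIF, PD0325901 (1 µM, a MEK inhibitor) and CHIR99021 (3 µM, a GSK3 inhibitor). The B6 line (B6 5-1) is from C57BL/6J and the D2 line (D2 5-5) from DBA/2J. The line B6-13D2 (QJ 6-1, strain B6.D2-(rs30079041-rs51756099)/Bakr) carries a D2 interval, on chromosome 13 by its name, in a B6 genome, and D2-13B6 (XE 2-4) carries the B6 interval in a D2 genome. Its strain is D2.B6-(rs29224292-rs13469455)/Bakr in the sample labels, while the series design gives rs51756099 as the second marker. No gene was targeted in any line. Each genotype is represented by 1 line, so the p-values of the loop tests measure the spread between technical libraries, and line and genotype cannot be told apart.

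Library totals ran from 737955 to 1425304 counts over all loops, and the 4 congenic libraries were the deepest of the 8. Members received 1969313 counts, 23.3% of the total, although they were 0.241% of the loops. They made up 96 of the 100 highest loops and 670 of the 1000 highest. A median member held 1384 counts over the 8 libraries, the range was 1 to 14544, and the 100 highest held 33.2% of the members' counts. The filter of at least 5 counts in at least 2 libraries was passed by 994 members. The 8 that did not pass had 18 counts or fewer in all libraries together, and 10 members had a count of 0 in some library. Levels are given as CPM, the count of a loop scaled by its library's sum over tested loops and TMM factor, and the 2 libraries of a line are printed as a pair in replicate order.

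Promoters that start inside members are shown first, because most members hold one. Each line gives the 250 bases upstream of the RefSeq start on GRCm38.p6, 5′ to 3′ on the gene's strand, with capitals for any GGGCGG (the GC box), CCAAT or TATAAA on either strand. The genes are Smarcad1 (chr6:65042341-65042590, plus strand), the member with the most contacts; Klf2 (chr8:72318812-72319061, plus) and Pou5f1 (chr17:35505782-35506031, plus), from the pluripotency network; Plekhm3 (chr1:64956825-64957074, minus), the member with the smallest FDR between the strain backgrounds; and Suz12 (chr11:79992856-79993105, plus), from chromosome 11.
Smarcad1: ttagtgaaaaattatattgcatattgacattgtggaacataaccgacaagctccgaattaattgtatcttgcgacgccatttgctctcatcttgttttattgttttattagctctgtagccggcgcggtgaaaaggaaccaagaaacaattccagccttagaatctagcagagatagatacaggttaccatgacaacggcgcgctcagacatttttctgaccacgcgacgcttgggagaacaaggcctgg
Klf2: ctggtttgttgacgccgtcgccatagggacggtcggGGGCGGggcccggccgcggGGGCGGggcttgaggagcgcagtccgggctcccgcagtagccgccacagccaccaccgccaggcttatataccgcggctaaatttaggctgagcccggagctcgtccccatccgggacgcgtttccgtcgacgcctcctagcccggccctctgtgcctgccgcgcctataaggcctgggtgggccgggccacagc
Pou5f1: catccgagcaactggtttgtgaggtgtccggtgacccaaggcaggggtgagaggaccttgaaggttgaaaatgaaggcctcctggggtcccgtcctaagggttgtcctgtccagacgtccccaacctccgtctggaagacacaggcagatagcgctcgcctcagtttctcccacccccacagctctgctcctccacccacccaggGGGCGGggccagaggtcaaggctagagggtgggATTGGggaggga
Plekhm3: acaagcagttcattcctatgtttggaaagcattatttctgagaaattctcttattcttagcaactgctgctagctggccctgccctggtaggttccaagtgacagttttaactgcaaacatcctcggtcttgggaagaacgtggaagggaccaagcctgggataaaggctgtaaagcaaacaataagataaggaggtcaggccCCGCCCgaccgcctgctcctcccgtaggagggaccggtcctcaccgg
Suz12: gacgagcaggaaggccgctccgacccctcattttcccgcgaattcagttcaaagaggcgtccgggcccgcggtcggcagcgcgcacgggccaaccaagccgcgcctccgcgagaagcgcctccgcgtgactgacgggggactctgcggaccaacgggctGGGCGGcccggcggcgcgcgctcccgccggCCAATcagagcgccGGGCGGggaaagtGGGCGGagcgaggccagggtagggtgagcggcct
The Suz12 promoter held 3 GC boxes and 37 CpG, that of Klf2 2 GC boxes and 29 CpG, and that of Smarcad1 no GC box and 13 CpG. Over the 1269 genes with a table entry that start in members, GGGCGG stood in 50.2% of promoters, against 32.9% of all 27025 promoters in the table. CCAAT stood in 36.2% against 34.5%, TATAAA in 8.51% against 13.0%, and the octamer ATTTGCAT in 2.05% against 1.61%, each counted on both strands; matches of different motifs were counted separately where they overlapped. The median promoter of these genes had 57.2% GC and 52.0 CpG per kb, against 52.0% and 24 over all promoters. These shares describe letters in a window and say nothing about factor binding.

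Most members were gene starts. A coding gene began in 778 of the 1002 (77.6%), and 293 (29.2%) held 2 or more coding starts, up to 14 in a histone gene anchor. Of the rest, 88 lay in the body of a coding gene and 136 touched no coding gene. The share with a coding start was 28.8% of the 25101 anchors of 5 to 10 kb, 55.7% of the 3911 anchors of 15 to 25 kb with inside contacts, and 71.3%, 77.8%, 80.1% and 97.1% of members of 30 kb, 35 to 40 kb, 45 to 60 kb and 65 to 90 kb. All 8 members of 95 kb or more held one. Wider anchors cover more bases, and per 100 kb the members had 3.2 coding starts, fewer than the 4.3 of anchors of 15 to 25 kb and the 5.19 of those of 5 to 10 kb. Each member had a loop to a median of 53 other anchors, against 42 for 15 to 25 kb and 22 for 5 to 10 kb.

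Contacts grew with width, as does the number of possible bin pairs in an anchor. The median member level was 113 CPM at 30 kb, 202 at 35 to 40 kb, 359 at 45 to 60 kb, 826 at 65 to 90 kb and 1464 at 95 to 130 kb. Divided by the number of possible bin pairs, the medians were 11.3, 11.3, 10.3, 9.96 and 6.87 CPM per pair. Anchors of 25 kb, just outside the threshold, had a median of 69.8 CPM and 11.6 per possible pair. The 3 highest of them, at the non-coding gene Gm43482, at Eya3 and at Lrig2, held 219, 217 and 208 CPM, while the 3 highest at 30 kb, Zbtb44, Dars and Canx, held 333, 332 and 324. The level therefore rose step by step across the threshold, and the level per possible pair did not.

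**Figure D1:**
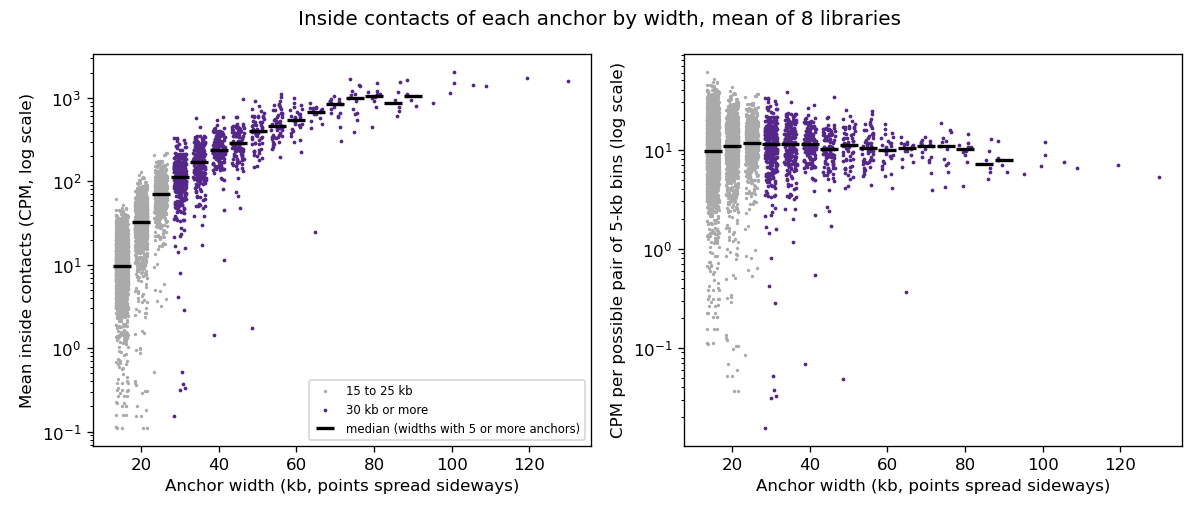
Contacts inside each anchor against anchor width in kb, on log axes, as the mean of 8 libraries: CPM in one panel and CPM per possible bin pair in the other, with purple points for members, grey points for anchors of 15 to 25 kb and black bars for the median at each width. The medians climb from 69.8 CPM at 25 kb to 826 at 65 to 90 kb, while those per possible pair stay between 9.96 and 11.6 over the same widths.

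Inside contacts were short. Bin pairs 10 kb apart, the nearest that the files list, held 49.6% of them, those 15 kb apart 20.9% and those 20 kb apart 11.6%. Per possible pair the counts were 158 at 10 kb, 79.6 at 15 kb, 54.8 at 20 kb, 36.6 at 30 kb, 24.3 at 50 kb and 9.38 at 100 kb. Bins were ranked by contacts per partner bin, a partner being a bin of the same member 10 kb or more away. The highest bin held a coding start in 267 of the 778 members that have one (34.3%), where 29.3% of their bins do. In most of these members the bin with the most contacts per partner bin was therefore one without a coding start.

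The broad anchor with the most contacts was that of Smarcad1, a chromatin remodeler that silences endogenous retroviruses, at chr6:64995001-65095000 (all coordinates GRCm38). It held 1756 and 1785 CPM in the B6 pair, 2283 and 1882 in B6-13D2, 1860 and 1976 in the D2 pair, and 2234 and 2698 in D2-13B6. Line means were 1770 ± 21, 2082 ± 283, 1918 ± 82.5 and 2466 ± 328 (SD, n = 2 each). D2-13B6 was above the B6 and D2 libraries, and the spread within both congenic lines was wider than that within B6. Akap12, a scaffold of protein kinase A, came next at chr10:4235001-4355000, 120 kb wide, with 1813 and 1555 CPM in the B6 pair, 1800 and 1792 in B6-13D2, 1446 and 1570 in the D2 pair, and 1947 and 2101 in D2-13B6. Macf1, a linker of actin and microtubules, had an anchor of 75 kb with 1560 and 1372, 1766 and 1757, 1512 and 1687, and 1821 and 2027 CPM in the same order. In each of these 3 anchors both D2-13B6 libraries exceeded both D2 libraries on this scale. After removal of the abundance trend, a dependence of the log2 fold change on mean level, D2 against D2-13B6 was 0.03 at Smarcad1 (FDR 0.955), −0.05 at Akap12 (FDR 0.924) and 0.11 at Macf1 (FDR 0.764).

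Others among the highest 12 were the anchors of Scpep1 with Coil and Trim25 (1584 CPM); Hspa4 with Zcchc10 (1547); Ncoa3 (1527), a coactivator of nuclear receptors; Hspb1 with Ywhag (1512); Trip12 (1450), a ubiquitin ligase; Cd9 (1417), a tetraspanin of the cell surface; Skida1 with Mllt10 (1383); and Mtf2 (1382), an accessory subunit of the Polycomb complex PRC2. The widest member of all was the 130-kb anchor of Scpep1, Elobl, Coil and Trim25 at chr11:88920001-89050000. Breadth and density were different rankings: per possible bin pair the Scpep1 anchor held 5.28 CPM, against 12 for Smarcad1, 18.5 for Macf1 and 25.3 for Ranbp17. Jarid2, another PRC2 accessory gene, had a 95-kb anchor (chr13:44665001-44760000) with 860 CPM, or 5.62 per possible pair. The anchor of Stk38, Srsf3 and Cdkn1a, 100 kb wide at chr17:29000001-29100000, held 1163 CPM.

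**Figure D2:**
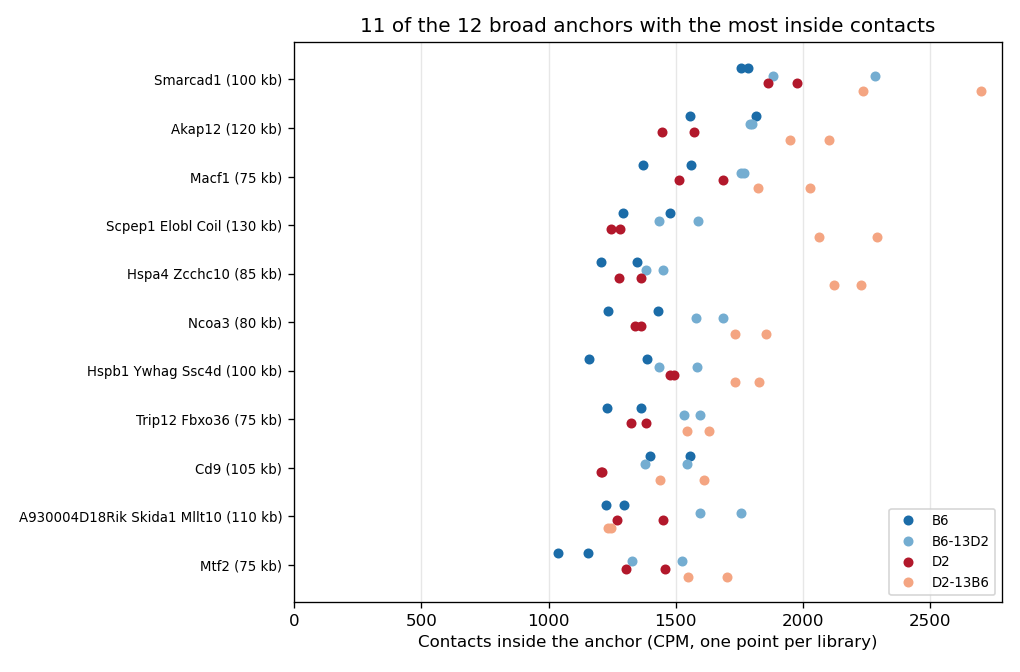
Contacts inside 11 of the 12 members with the highest mean, in CPM on an axis from 0, 1 point per library and 1 colour per line. The Smarcad1 anchor is highest in mean (2059 CPM), and the means of the others shown run down to 1382 CPM.

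Genes of the pluripotency network were frequent among members. Of 33 listed factors 18 started in a member (54.5%), in 17 members with a median of 262 CPM, where 5.83% of all 21924 coding genes started in one. All 33 factors started in an anchor of some width. Of the 21924 coding genes 11156 did so, and 1278 started in a member. The list was Pou5f1, Sox2, Nanog, Klf2, Esrrb, Tfcp2l1, Tbx3, Sall4, Dppa2, Dppa3, Dppa5a, Tdgf1, Fbxo15, Phc1, Rif1, Gdf3, Trim28 and Jarid2. Klf2, a naive-state transcription factor, held 839 and 637 CPM in the B6 pair, 655 and 868 in B6-13D2, 705 and 668 in the D2 pair, and 739 and 847 in D2-13B6. Both D2-13B6 libraries lay above both D2 libraries and the other pairs overlapped, and no comparison called Klf2. Esrrb, an orphan nuclear receptor, had an anchor of 75 kb with 528 and 447.5, 387 and 502, 533 and 569.9, and 637 and 706 CPM in the same order of lines. Tfcp2l1, which acts with Esrrb, held 353 to 486 CPM over the 8 libraries. The Nanog anchor (35 kb at chr6:122685001-122720000) held 227 and 194 CPM in the B6 pair, 236 and 223 in B6-13D2, 224 and 218 in the D2 pair, and 226 and 283 in D2-13B6. D2-13B6 lay just above D2, and the other pairs overlapped.

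Markers of other cells the cultures might hold were counted against the 5.83% of all coding genes that start in members. None of 10 ectoderm and neural, 12 mesoderm and endoderm and 10 trophoblast markers started in one. At that share, 0 of 10 or 12 genes says little. Nor did any of 39 Hox genes, known Polycomb targets in embryonic stem cells. Of 13 genes of the formative and primed state 1 did, Foxd3, with 88.6 CPM, and of 14 fibroblast and feeder markers 1 did, Fn1, with 341 CPM. An anchor of any width held the start of 8 of the 13 formative and primed genes and 6 of the 14 fibroblast and feeder markers. It did so for 5 of the 39 Hox genes, 1 of the 10 ectoderm and neural markers and 0 of the other 2 marker lists. Chromatin regulators had 15 of 35 genes in 16 members (Tet1 has annotated starts in 2 of them), with a median of 482 CPM. From LIF, FGF and WNT signalling 3 of 34 started in members, Pim1 (931 CPM) and Etv5 (659), known targets of LIF and of ERK signalling, and Smad7. Among other groups 8 of 26 housekeeping genes, 16 of 95 genes named as ribosomal proteins and 35 of 418 zinc finger genes did so.

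The share of a library's counts that fell inside members was 22.6% and 20.7% in B6, 23.6% and 24.3% in B6-13D2, 21.2% and 22.0% in D2, and 24.4% and 24.9% in D2-13B6. All 4 congenic libraries were above all 4 parental ones. They were also the deeper libraries, so genotype and depth cannot be told apart here. Neither of the crossed comparisons separated: the 4 libraries of the D2 background had 23.1 ± 1.79% (SD, n = 4) and the 4 of the B6 background 22.8 ± 1.58% (two-sided exact permutation test, p = 0.771, Benjamini-Hochberg 0.771 over 4 comparisons). With the D2 interval the share was 22.8 ± 1.43%, against 23.1 ± 1.91% with the B6 interval (exact p = 0.743, adjusted 0.771). The smallest p that 4 against 4 allows is 0.0286. Each side holds technical pairs of 2 lines, so its SD also holds the difference between lines, and the test, which treats the 4 libraries as separate samples, has only 2 lines a side behind it.

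Among contacts inside members, 29.5% and 28.9% joined bins 20 kb or more apart in B6, 28.4% and 28.3% in B6-13D2, 29.95% and 28.7% in D2, and 29.9% and 31.3% in D2-13B6. B6-13D2 had the lowest and D2-13B6 the highest line mean, 28.4 ± 0.0467% and 30.6 ± 1.01% (SD, n = 2). The D2 background was 1.186 percentage points above the B6 background (29.95 ± 1.07% against 28.8 ± 0.518%, exact p = 0.0857, adjusted 0.343), and the D2 interval 1.03 points below the B6 interval (28.8 ± 0.757% against 29.9 ± 1.04%, exact p = 0.171, adjusted 0.343). None of the 4 comparisons passed. Bins with a coding start carried, per partner bin, 0.983 and 0.984 times the contacts of other bins of the same members in B6, 0.964 and 0.984 in B6-13D2, 1.02 and 1.02 in the D2 pair, and 1.03 and 1.03 in D2-13B6. That ratio lay below 1 in the 4 libraries of the B6 background and above 1 in the 4 of the D2 background; it was looked at after the other values, and no test was made.

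**Figure D3:**
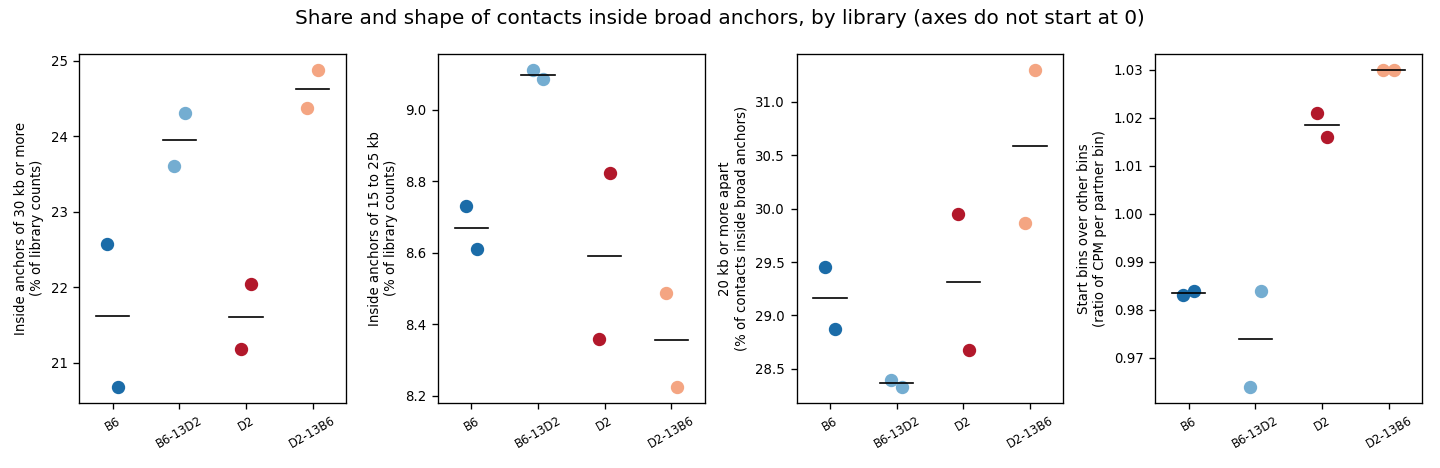
Share of library counts inside members and inside anchors of 15 to 25 kb (%), share of contacts inside members that joined bins 20 kb or more apart (%), and the ratio of start bins to other bins, 1 point per library with a bar for each line's mean, on axes that do not start at 0. The congenic lines are highest in the first panel (23.96% and 24.6% against 21.6% and 21.6%), and the ratio in the last panel is above 1 in D2 and D2-13B6.

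Lines were compared loop by loop with edgeR's quasi-likelihood test over all 44706 loops that passed the filter, with 1 mean per line and Benjamini-Hochberg adjustment over all of them; a call is an FDR under 0.05. D2 against B6, which compares the parental genomes, called 88 of the 994 tested members higher in D2 (8.85%) and 99 lower (9.96%). Over all tested loops 1.38% were called higher and 1.27% lower. The median log2 fold change was 0.01 in members and 0.02 over all loops. Members hold more counts than most loops, so a smaller change can pass the test in them. Inside loops of 15 to 25 kb had 4.74% called, both directions together, compared with 18.8% of tested members. Of the 187 called members 46 changed by 2-fold or more, 21 up and 25 down.

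The clearest change was at Plekhm3, whose protein carries pleckstrin homology domains, at chr1:64945001-64985000. It held 83.7 and 63.7 CPM in B6 and 79.2 and 70.6 in B6-13D2, against 461 and 487 in D2 and 639.5 and 620.2 in D2-13B6. Both D2-background lines were far above both B6-background lines (D2 against B6, log2 fold change 2.66, SE 0.17, FDR 6.12e-54). All 8 of its bins moved the same way, and 36.8% of the difference lay in the bin at chr1:64955001-64960000, which holds the coding start printed above. That bin had 38.1 ± 0.806 CPM in the B6 pair, 39.5 ± 7.17 in B6-13D2, 333 ± 11.9 for D2 and 420 ± 1.32 for D2-13B6 (SD, n = 2). Contacts from the Plekhm3 anchor to other anchors rose less, by 0.82 on the log2 scale (FDR 1.59e-05).

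A member at chr4:53315001-53355000 that holds no gene, 85.4 kb from the start of the choline transporter gene Slc44a1, had 83.7 and 53.9 CPM in the B6 pair, 91.6 and 115 in B6-13D2, 392 and 439.7 in the D2 pair, and 453 and 486 in D2-13B6. The D2-background lines were again higher without overlap (log2 fold change of D2 against B6 2.56, SE 0.17, FDR 7.14e-47), and 1 bin, chr4:53335001-53340000, carried 40.2% of the difference. At chr15:8815001-8850000, 104.2 kb from the glutamate transporter gene Slc1a3, levels were 77.4 and 83.3, 58.1 and 51.6, 258 and 286, and 293 and 319 CPM in B6, B6-13D2, D2 and D2-13B6 (D2 against B6 1.76, SE 0.18, FDR 4.27e-20). Contacts of these 2 anchors with other anchors also rose, by 1.14 and 1.27 on the log2 scale. The anchor of the non-coding gene Gm26983 rose by 1.23 (SE 0.15, FDR 1.55e-13), from 161 and 163 CPM in B6 to 338 and 425 in D2. A member on the Y chromosome (chrY:90715001-90745000) had counts of 0 and 0 in the B6 pair, 1 and 0 in B6-13D2, 26 and 34 in the D2 pair, and 22 and 17 in D2-13B6.

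Nod1, an intracellular receptor for bacterial peptidoglycan, showed the reverse. Its anchor at chr6:54935001-54975000 held 343 and 304 CPM in B6 and 379 and 398 in B6-13D2, against 35.9 and 52.4 in D2 and 25.9 and 38.6 in D2-13B6. Contacts in the D2-background lines were lower without overlap (D2 against B6 −2.89, SE 0.20, FDR 1.56e-45), and each of its 8 bins fell, the strongest from 120 ± 15.3 to 11.5 ± 6.15 CPM. Scaf4, a factor of transcription termination, fell from 211 and 189.5 CPM in B6 to 31.6 and 33.3 in D2 (−2.63, SE 0.22). Pdpn, the cell-surface glycoprotein podoplanin, held 336 and 245 CPM in the B6 pair, 193 and 217 in B6-13D2, 96.2 and 79.4 in the D2 pair, and 126 and 83.3 in D2-13B6. It fell in D2 (−1.73, SE 0.17, FDR 1.94e-20), in all 9 bins, and B6-13D2 lay between the parents (against B6 −0.51, FDR 0.0426). Gm21915 had the same order, with 395 and 390.4 CPM in the B6 pair, 249 and 299 in B6-13D2, and 92.8 to 116 in the 4 D2-background libraries.

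**Figure D4:**
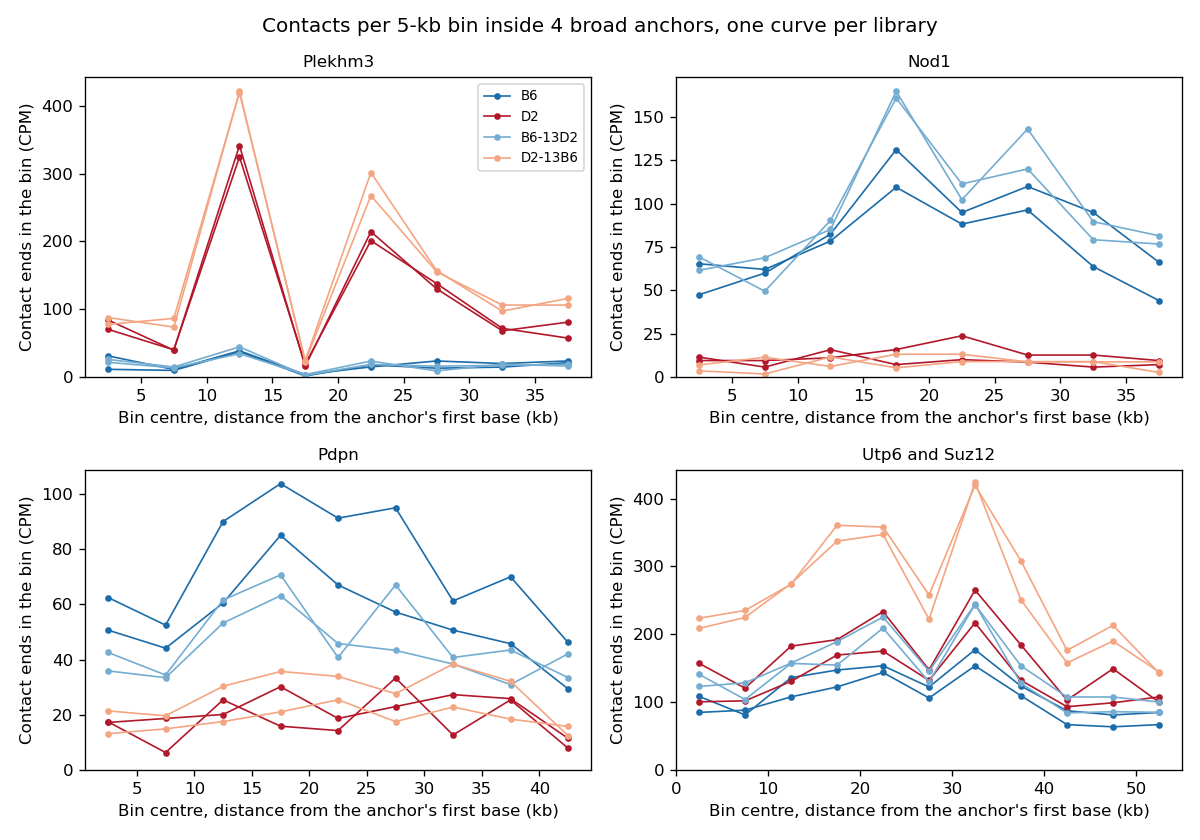
Contact ends per 5-kb bin (CPM, axis from 0) along 4 members, against distance from the anchor's first base in kb, 1 curve per library. In Plekhm3 a single bin reaches 333 ± 11.9 CPM in D2, in Nod1 and Pdpn the B6-background curves stand above the D2-background curves along the whole anchor, and in Utp6 and Suz12 the D2-13B6 curves stand above the others.

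Contacts that left the members gave a separate readout, since their read pairs are not those inside. They were summed per anchor and tested over 21174 anchors, 999 of them members. In D2 against B6, 96 members (9.61%) were called higher and 122 (12.2%) lower, against 5.15% and 5.71% of all anchors. Of the 187 members called inside, 110 were also called for outgoing contacts in the same direction and 177 had the same sign. Among these 187 the median size was 0.74 inside and 0.47 outgoing, on the log2 scale. Across 994 members the 2 log2 fold changes had a Pearson r of 0.715; both come from the same libraries and scaling factors, and members are not independent samples.

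The background effect, the mean of D2 and D2-13B6 minus the mean of B6 and B6-13D2, uses all 8 libraries and so shares those of the parental comparison. It called 195 of 994 members higher (19.6%) on the D2 side and 190 lower (19.1%), against 4.3% and 4.55% of all loops, with medians of 0.03 in members and 0.02 over all loops. Of these calls, 96 higher and 134 lower had no overlap between the libraries of the 2 backgrounds. Chromosome 11 held 39 of the higher calls, and its 94 members had a median of 0.20, against 0.01 elsewhere. Crxos, a homeobox gene, held 62.4 and 83.3 CPM in the B6 pair, 32.2 and 39.8 in B6-13D2, 155 and 216 in the D2 pair, and 269 and 253 in D2-13B6 (background 2.1, SE 0.13, FDR 1.22e-51). Here the congenic lines were further apart than the parents, with B6-13D2 below B6 (−0.97, FDR 0.0166). Adam23, an adhesion protein, had 24.4 to 45.7 CPM in the B6 background and 131 to 185 in the D2 background (2.22, SE 0.15).

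Lower in the D2 background was Btn2a2, a butyrophilin of the immune system, on chromosome 13. Its anchor held 175 and 188 CPM in the B6 pair, 275 and 272 in B6-13D2, 11.5 and 30.2 in the D2 pair, and 23.2 and 27.2 in D2-13B6 (background −3.29, SE 0.16). B6-13D2 against B6 was 0.60 (FDR 0.0136; 0.49, FDR 0.0697, with the abundance trend removed). Nnt, the mitochondrial transhydrogenase gene of which C57BL/6J carries a deletion, shares an anchor with Paip1 (chr13:119405001-119435000) that held 132 and 122 CPM in the B6 pair, 184 and 167 in B6-13D2, 44.5 and 38.1 in the D2 pair, and 39.2 and 29.8 in D2-13B6. The B6-background lines were higher without overlap (−1.98, SE 0.15, FDR 1.26e-36). Mras, a Ras-family GTPase, had 486 and 390.4, 431 and 462, 261 and 211, and 149 and 169 CPM (−1.19, SE 0.10).

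The parental comparison called 18.8% of all tested members, both directions together. Of the 17 tested members with a pluripotency factor 1 was called higher in D2, Sox2 (0.74, FDR 0.0222), and 1 lower, Sall4 (−0.56, FDR 0.00703), with a median of 0.06. Sox2 held 54.9 and 88.2 CPM in the B6 pair, 89.1 and 90.5 in B6-13D2, 132 and 100 in the D2 pair, and 120 and 134 in D2-13B6. The background effect, which called 19.6% of all tested members higher and 19.1% lower, called 6 of the 17 higher and 0 lower: Sox2 (0.62), Trim28 (0.51), Tbx3 (0.45), Phc1 (0.43), Fbxo15 (0.39) and Esrrb (0.38). With the abundance trend removed these 6 were called as well. Among the 16 members with chromatin regulators the parental comparison called Suz12 higher (0.44) and Kdm5b, a demethylase of lysine 4 on histone H3, lower (−0.60, FDR 1.71e-05). Kdm5b held 1279 and 1076 CPM in the B6 pair, 1261 and 1286 in B6-13D2, 783 and 779.5 in the D2 pair, and 857 and 909.7 in D2-13B6, with no overlap between backgrounds.

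The effect of the interval was read in each background: B6-13D2 against B6 is the D2 interval in a B6 genome, and D2 against D2-13B6 is the D2 interval in a D2 genome. The 2 comparisons share no library. In the B6 background 89 of 994 members were called higher (8.95%) and 21 lower (2.11%), against 0.537% and 0.322% of all loops, with medians of 0.15 in members and 0.00 over all loops. In the D2 background 15 were called higher (1.51%) and 129 lower (13.0%), against 0.188% and 0.734%, with medians of −0.15 and −0.02. These directions move with the scaling. With the trend of log ratio on abundance removed, the B6 background had 26 calls higher and 37 lower and the D2 background 50 and 55; with library totals alone they were 57 and 25, and 27 and 92. The excess in one direction was small with the trend removed. That trend was fitted over the tested loops, and members made up 670 of the 1000 highest loops. Its removal can therefore take out a shift shared by the members, so it is no separate check on direction.

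In the B6 background the Hist1 anchor on chromosome 13 led the rise, and it is described with the other histone genes below. Gm49436, annotated as a non-coding gene, rose from 147 and 142 CPM in B6 to 236 and 301 in B6-13D2 (0.90, SE 0.15, FDR 6.87e-06). Hsph1, a heat-shock co-chaperone, held 121 and 89.8 CPM in B6 and 176 and 221 in B6-13D2 (0.90, SE 0.17). The scaffold gene of ubiquitin ligases Cul3 rose in both backgrounds with the D2 interval, by 0.75 (SE 0.13, FDR 2.89e-05) and 0.55 (FDR 0.0122). Its pairs were wide in B6 (214 and 300.5 CPM), in B6-13D2 (502 and 360.3) and in D2 (242.7 and 361.9), against 213.2 and 196.5 in D2-13B6.

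Among members that fell in B6-13D2, Obox6, an oocyte-specific homeobox gene, held 129 and 116 CPM in the B6 pair, 21.03 and 19.0 in B6-13D2, 58.9 and 71.4 in the D2 pair, and 115 and 113 in D2-13B6. It was lower with the D2 interval in both backgrounds (−2.62, SE 0.25, FDR 1.26e-21, and −0.81, FDR 0.0101), and so were its outgoing contacts (−1.86 and −1.17). Ypel2, a member of the yippee family on chromosome 11, fell from 368 and 310.3 CPM in B6 to 142 and 185 in B6-13D2 (−1.04, SE 0.14, FDR 1.44e-09), near the 131 and 157 of D2. D2-13B6 lay between, with 207 and 209.7 CPM (D2 against D2-13B6 −0.54, FDR 0.0609). Members on chromosome 11 had a median of −0.60 in that comparison. Anxa11, a calcium-binding annexin, held 186 and 168 CPM in the B6 pair, 80.4 and 96.9 in B6-13D2, 80.4 and 85.7 in the D2 pair, and 132 and 118 in D2-13B6 (−0.99, SE 0.17, FDR 1.9e-05). Pitpnc1, a phosphatidylinositol transfer protein also on chromosome 11, was called in both backgrounds (−0.87, SE 0.16, and −0.94, SE 0.14). Its D2-background value stands beside the same chromosome 11 median of −0.60.

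Nlrp4f, a NOD-like receptor gene on chromosome 13, is one of 3 members there whose calls in the 2 backgrounds shared a sign. Its levels were 221 and 209 CPM in the B6 pair, 85.4 and 83.3 in B6-13D2, 67.5 and 68.3 in the D2 pair, and 162 and 143 in D2-13B6. Both lines with the D2 interval were below both lines with the B6 interval (−1.35, FDR 1.52e-11, and −1.17, FDR 9.34e-07), and outgoing contacts fell too (−1.13 and −0.83). The anchor of the zinc finger genes Zfp459 and Zfp874a, KRAB-type genes of a chromosome 13 cluster, held 145 and 154 CPM in the B6 pair, 80.4 and 80.6 in B6-13D2, 86.2 and 93.7 in the D2 pair, and 161 and 169 in D2-13B6. The lines with different intervals did not overlap here either (−0.89, SE 0.18, FDR 0.000761, and −0.88, SE 0.18, FDR 0.000348). The third, which holds the non-coding gene Gm48360, had 48 and 19 counts in B6, 0 and 0 in B6-13D2, 2 and 0 in the D2 pair, and 65 and 50 in D2-13B6. Of the 40 tested members on chromosome 13, 12 were called in the B6 background (30%, 9 higher and 3 lower), 8 in the D2 background (20%, 2 higher and 6 lower) and 16 between the parents (40%, 9 higher and 7 lower), against 11.1%, 14.5% and 18.8% of all tested members.

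In the D2 background 15 members were called higher under the D2 interval and 129 lower, a split that became 50 and 55 with the abundance trend removed. The anchor in the body of Adam32 held 61.2 and 67.0 CPM in the B6 pair, 96.5 and 98.7 in B6-13D2, 105 and 146 in the D2 pair, and 59.8 and 53.5 in D2-13B6 (D2 against D2-13B6 1.14, SE 0.20, FDR 6.77e-06; in the B6 background 0.61, FDR 0.166). Fmnl2, a formin that nucleates actin, had an anchor in its body with 164 and 171 CPM in D2 and 89.2 and 81.6 in D2-13B6 (0.97, SE 0.17), and 149.8 to 195.5 in the other lines, so D2-13B6 alone was low. Inside the body of Aass, a lysine-degrading enzyme, both interval effects were called (1.02, FDR 0.000658, and 1.59, FDR 1.88e-12).

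Chromosome 11 held 57 of the 129 members that fell. Of its 94 members these 57 were called lower in D2 than in D2-13B6 and 0 higher, with a median of −0.60. Among the 900 tested members elsewhere 72 were called lower and 15 higher, with a median of −0.11. The Scpep1 anchor, the widest member, held 1477 and 1292 CPM in the B6 pair, 1435 and 1587 in B6-13D2, 1280 and 1245 in the D2 pair, and 2063 and 2291 in D2-13B6. D2-13B6 stood above the other 3 lines (D2 against D2-13B6 −0.79, SE 0.10, FDR 1.44e-10). Helz, an RNA helicase, had 937 and 805, 1054 and 1114, 775.5 and 771.5, and 1375 and 1421 CPM in the same order (−0.85, SE 0.11, FDR 2.46e-11). With a separate scaling factor per chromosome Scpep1 came to −0.32 (FDR 0.158) and Helz to −0.38 (FDR 0.0579), and the members' counts over the genome to 9 higher and 87 lower. What sets the shift of chromosome 11 was not tested.

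The anchor of Utp6 and Suz12, the latter a core subunit of PRC2, lies on the same chromosome at chr11:79960001-80015000. It held 652 and 557 CPM in the B6 pair, 804 and 798 in B6-13D2, 729.5 and 918 in the D2 pair, and 1391 and 1484 in D2-13B6. It was lower in D2 than in D2-13B6 (−0.81, SE 0.11, FDR 4.86e-10; −0.34, FDR 0.152, with a factor per chromosome). Other chromatin regulators lower in D2 than in D2-13B6 were Cbx1, also on chromosome 11, Zfp57, Tet1 (not in both of its members) and Smarcad1. With Suz12 these were 5 called of 16, and 0 in the other direction, beside 13.0% of all tested members called lower. With the abundance trend removed Zfp57 (FDR 0.652), Tet1 (FDR 0.0868) and Smarcad1 (FDR 0.955, log2 fold change 0.03) were no longer called. Suz12 and Cbx1, which kept the call, both lie on chromosome 11, where 57 of 94 members were called lower. In the B6 background Cbx5 and Suz12 were called higher with the D2 interval, and neither was called with the abundance trend removed.

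From the pluripotency list the D2 background called 4 of 17 lower in D2 than in D2-13B6 and 0 higher, with a median of −0.24: Dppa5a (−0.78, FDR 7.95e-07), Trim28 (−0.65), Pou5f1 (−0.58, FDR 0.00172) and Sall4 (−0.50). Of all tested members 13.0% were called lower. With the abundance trend removed Pou5f1 (FDR 0.151) and Sall4 (FDR 0.411) were no longer called. Dppa5a, an RNA-binding marker of the naive state, held 349.6 and 369 CPM in the B6 pair, 362 and 375 in B6-13D2, 304 and 333 in the D2 pair, and 536 and 555 in D2-13B6. Pou5f1 held 431 and 317, 405 and 485, 292 and 321, and 449 and 465. Dppa5a stood apart in D2-13B6, while the Pou5f1 libraries of D2-13B6 lay above D2 and overlapped those of B6-13D2. In the B6 background 0 of the 17 were called by edgeR at FDR 0.05, with a median of 0.07.

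The histone gene anchors named here were lowest in B6 and highest in D2-13B6. Of 99 histone genes 41 started in 6 members, and copies of one class are nearly identical, so their counts are uncertain. The 70-kb Hist1 anchor (chr13:23530001-23600000, 14 coding starts from Hist1h4h on) held 161 and 232 CPM in the B6 pair, 412 and 429 in B6-13D2, 402 and 494 in the D2 pair, and 596 and 888 in D2-13B6. B6-13D2 and D2 overlapped each other between the low B6 and the high D2-13B6 pair (D2 against B6 1.21, SE 0.14; B6-13D2 against B6 1.12, SE 0.14; D2 against D2-13B6 −0.73, SE 0.12). Its outgoing contacts were called for the first pair (1.04 and 1.08) and not for the last (−0.16, FDR 0.488). The Hist1h1c anchor held 43.7 and 65.3, 151 and 150.3, 124 and 133, and 161 and 269 CPM in the same order, again with B6 lowest and D2-13B6 highest (1.26, 1.5 and −0.75). On another chromosome the Hist2h3c2 anchor held 124 and 118 CPM in the B6 pair, 196 and 217 in B6-13D2, 224 and 218 in the D2 pair, and 336 and 400 in D2-13B6 (0.87, 0.78 and −0.74). Over the 6 members, 5 were called higher in D2 than in B6, 4 higher in B6-13D2 than in B6, 4 lower in D2 than in D2-13B6, and 0 in the opposite directions. The shares of all tested members called in these directions were 8.85%, 8.95% and 13.0%. Of the last 4, the Hist1h2bl anchor was not called with the abundance trend removed (FDR 0.079).

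The other lists were mixed. Of 30 tested members with zinc finger genes, the parental comparison called 1 higher in D2, Zfp184 (0.88, FDR 1.37e-06), and 7 lower, among them Zfp976 (−1.94) and Zfp936 (−0.81), with a median of −0.07. Of all tested members 9.96% were called lower in that comparison, 2.11% lower in B6-13D2 than in B6 and 13.0% lower in D2 than in D2-13B6. The interval called 1 higher and 1 lower in the B6 background, and none higher but 6 lower in the D2 one. With the abundance trend removed Zfp184 lost the call in the B6 background (FDR 0.281), and Zfp654, Zfp57, Zfp64 and the anchor of Zfp553 and Zfp771 lost it in the D2 background (FDR 0.0604 to 0.652). Of 15 members with genes named as ribosomal proteins, 1 (against 8.85% of all tested members) was called higher in D2 than in B6, Rps12 (0.66, FDR 0.00593), and 2 lower, Rpl28 (−1.03, FDR 1.77e-06) and Rps6ka1 (−0.66, FDR 0.0235). Rps6ka1 is a kinase, and neither it nor Rpl7l1, which the name pattern also took in, is a ribosomal subunit.

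Outgoing contacts of the members followed the same directions for the interval. In the B6 background 92 of 999 were called higher (9.21%) and 16 lower (1.6%), against 2.72% and 1.5% of all anchors, and in the D2 background 19 (1.9%) and 158 (15.8%), against 1.19% and 3.94%. With library totals alone the splits were 60 higher and 31 lower, and 46 and 96. Of the members called inside, 50 of 110 and 92 of 144 were also called outgoing in the same direction, and 107 and 140 had the same sign. Gpr85 (0.98 inside, FDR 3.67e-05, against 0.47 outgoing, FDR 0.13) and Cul3 (0.75 against 0.10, FDR 0.89) were called inside alone.

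Whether the interval acts alike in both backgrounds was tested by the interaction, the effect in the D2 background minus that in the B6 background. It called 3 members higher (0.302%) and 123 lower (12.4%), against 0.0537% and 0.552% of all loops, with medians of −0.29 in members and −0.03 over all loops. On chromosome 11 42 of 94 members were called. With the abundance trend removed the counts over the genome were 23 and 17. The 5 with the smallest FDR were the Hist1 anchor (−1.85, SE 0.18, FDR 1.12e-19), Hist1h1c (−2.24, SE 0.26, FDR 7.91e-14), Ranbp17 (−1.27, SE 0.16, FDR 8.46e-12), Mrpl45 (−1.67, SE 0.21, FDR 3.3e-11) and Utp6 with Suz12 (−1.21, SE 0.16, FDR 1.07e-10). Ranbp17, an importin-family gene, held 619 and 611 CPM in the B6 pair, 907 and 863 in B6-13D2, 793 and 811 in the D2 pair, and 1338 and 1346 in D2-13B6. Mrpl45, a protein of the mitochondrial ribosome, held 145 and 168, 240.0 and 277, 157 and 167, and 313 and 302. In both, each congenic line was above its own parent, which makes the 2 interval effects opposite in sign.

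Over the 994 tested members, 425 had the same sign of the interval effect in both backgrounds with TMM scaling and 566 with the trend removed. Since the trend was fitted on loops that include the members, the 566 is not a separate check. Calls in both backgrounds numbered 26 with TMM, 12 of the same sign, and 19 with the trend removed, 14 of the same sign. Same-sign members with TMM were, beside the 3 on chromosome 13, Obox6, Pitpnc1, Blm, Cul3, the anchor in Aass and those of the non-coding genes Gm22600, Gm5493, Gm8047 and Gm25617. Pitpnc1 and Gm22600 lie on chromosome 11, where 57 of 94 members were called lower in D2 than in D2-13B6. Blm, the helicase of Bloom syndrome, held 155 and 132 CPM in the B6 pair, 82.9 and 91.4 in B6-13D2, 184 and 171 in the D2 pair, and 273 and 267 in D2-13B6 (−0.72, FDR 0.0152, and −0.60, FDR 0.00865). With the trend removed the D2-background call of Blm (FDR 0.0966) and the B6-background calls of Gm8047 (FDR 0.108) and Gm25617 (FDR 0.0611) were lost. Opposite-sign members included the cluster of the stem-cell microRNAs Mir290 to Mir295 (chr7:3180001-3240000), with 355 and 353, 491 and 481, 439 and 413, and 589 and 697 CPM in B6, B6-13D2, D2 and D2-13B6 (0.46, FDR 0.0378, and −0.59, FDR 0.000338). Neither was called with the trend removed (FDR 0.451 and 0.102). There, as at the histone anchors, both congenic lines were above their parents.

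**Figure D5:**
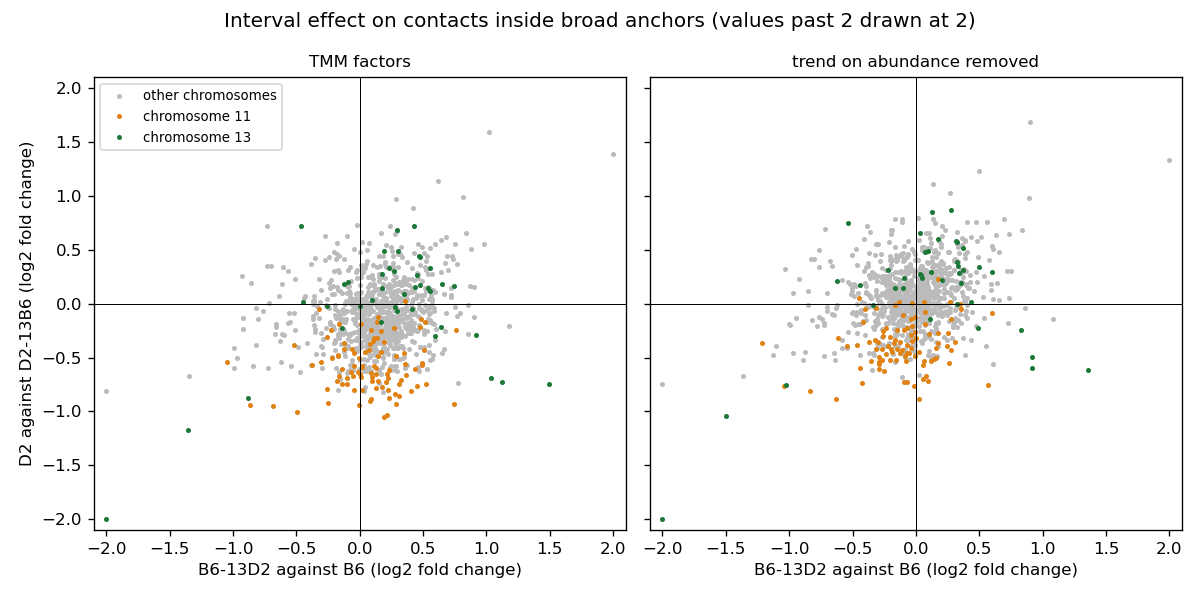
Interval effect on each tested member in the B6 background (horizontal, log2 fold change of B6-13D2 against B6) and in the D2 background (vertical, D2 against D2-13B6), 1 point per member, with TMM factors in one panel and the abundance trend removed in the other; values past 2 are drawn at 2. Chromosome 11 members (orange) lie below 0 on the vertical axis, and the share of points with the same sign goes from 425 to 566 of 994.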

How the data were processed

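Counts of H3K27ac HiChIP read pairs were used as the authors deposited them, raw, per pair of 5-kb bins in each library and per pair of merged anchors in a table of the 8 libraries; the bin pairs summed to that table for every inside loop. The submitters' processing notes name BWA 0.7.18, SAMtools 1.19.2, edgeR 3.34.1 and mm10; the loop caller, the rule that merged bins and the reference for D2 reads are not given in the sources used here. Listed bin pairs lie 10 kb to 2 Mb apart. Libraries held 737955 to 1425304 counts.

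Genes came from GENCODE M21 and promoters from RefSeq. Loops that reached 5 counts in 2 or more libraries (10 for an anchor's outgoing sum) entered edgeR 4.0.16 (R 4.3.3) quasi-likelihood fits with TMM factors, 1 mean per line and 4 residual degrees of freedom, with Benjamini-Hochberg adjustment at 0.05; the fit was tested on simulated data. Library shares were compared by exact permutation. Named were the 12 highest members, the 10 widest, up to 6 risen and 6 fallen per contrast by FDR without overlap, 5 for the interaction, up to 6 per gene list and 3 on each side of the width threshold; others were chosen after their values were seen. Members and lists were chosen with earlier results of these data known. Replicate numbers did not pair the libraries. Alternatives were other scalings, DESeq2, filters, widths and left-out libraries. Some named members are not reported here.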

Additional observations from a re-analysis of the deposited data

Results flagged for a closer look

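The interval effect differed between backgrounds in 126 members, by the edgeR interaction test. Of the 994 tested members 0.302% were called higher and 12.4% lower, against 0.0537% and 0.552% of all loops. With the abundance trend removed 40 members were called, 23 higher and 17 lower. The 5 with the smallest FDR are given here as the effect in the D2 background minus that in the B6 background, on the log2 scale. At the Hist1 anchor of 14 histone genes the difference was −1.85 and at the Hist1h1c anchor −2.24; with the abundance trend removed they were −1.41 and −1.98. On chromosome 11 it was −1.21 at Utp6 and Suz12, −1.27 at Ranbp17 and −1.67 at Mrpl45, or −0.66, −0.71 and −1.32 with the trend removed. In all 5 each congenic line was above its own parent line, and both congenic lines were the deeper ones. Lines of 2 libraries allow no test for outlying libraries.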

How the results depend on the processing

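Counts of members called moved by over 1.5 times under these settings. A width minimum of 40 kb left 93 members called inside between the parents, 54 for the interval in the B6 background, 93 for it in the D2 background and 195 for the background effect, and 96, 50 and 91 outgoing for the first 3, with fewer members tested. DESeq2 called 109 inside and 96 outgoing in D2 against B6 and 60 outgoing in B6-13D2 against B6. With no filter, D2 against B6 had 88 and the background 239. With the abundance trend removed, B6-13D2 against B6 had 63 and the interaction 40; library totals gave the interaction 65 and TMM on inside loops 83. A factor per chromosome left 101 outgoing calls in D2 against D2-13B6. Off chromosome 11, an alternative added after seeing the data, D2 against D2-13B6 had 87. The cause was not tested. Library totals moved the all-loop median of the interaction from −0.03 to 0.16.

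Without 1 library, inside calls ran from 94 (without B6 replicate 1) to 189 in D2 against B6, from 43 (without B6 replicate 1) to 98 in B6-13D2 against B6, from 49 (without D2 replicate 1) to 155 in D2 against D2-13B6, from 309 to 359 for the background and from 43 (without D2 replicate 1) to 137 for the interaction. Other libraries that moved a count by over 1.5 times were D2 replicate 1 (110) and 2 (95) in the first, B6 replicate 2 (65) and B6-13D2 replicates 1 (44) and 2 (64) in the second, and D2 replicate 2 (78) and D2-13B6 replicates 1 (92) and 2 (53) in the third. For the interaction they were B6 replicate 2 (63), B6-13D2 replicate 2 (66) and D2-13B6 replicates 1 (73) and 2 (53). Outgoing calls ran from 87 (without D2 replicate 2) to 234, from 47 (without B6-13D2 replicate 1) to 85, and from 57 (without D2 replicate 1) to 208; further ones that moved were B6 replicate 1 (112) and D2 replicate 1 (94), then B6 replicate 1 (68) and B6-13D2 replicate 2 (71), then D2 replicate 2 (61) and D2-13B6 replicates 1 (108) and 2 (72). A line left with 1 library was assumed to vary like the others.

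The share of counts inside members changed sign: D2 minus B6 background from −0.372 (without B6 replicate 2) to 0.975 points, also −0.0891 and −0.256 without D2-13B6 replicate 1 or 2, and D2 minus B6 interval from −1.16 to 0.242, with 0.19, 0.0745 and 0.242 without D2 replicate 1 or D2-13B6 replicate 1 or 2. The share 20 kb or more apart ran from 0.736 to 1.61 for the background and, for the interval, from −1.4 (without D2 replicate 1) to −0.556 (without D2-13B6 replicate 2), and without D2 replicate 2 the 1.61 points reached the smallest exact permutation p, 0.0286.

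With the replicate number as a block the calls were 171, 79, 121, 358 and 86 inside and 183, 75 and 138 outgoing; deviations of same-numbered libraries correlated between −0.0443 and 0.00669, so the numbers do not pair. Of 53 effects of the members named for a line comparison, the background or the interaction, 43 kept direction and call under the 13 settings run on them (other scalings, the trend, the block and each library left out); over these settings 17 recomputed values lost the call and 0 reversed. Members named from a list alone are not among the 53. Replicates differed by more than counting noise inside members, chi-square per degree of freedom 1.32 to 2.45.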

Other observations

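Some members separated 1 congenic line from the rest. Clcn3, a chloride-proton exchanger of endosomes, held 235 and 286 CPM in the B6 pair, 439 and 396 in B6-13D2, 154 and 164 in the D2 pair, and 122 and 110.5 in D2-13B6 (B6-13D2 against B6 0.69, SE 0.13, FDR 0.000281 by edgeR's quasi-likelihood test). Rad54b, a DNA-repair helicase that shares its anchor with Fsbp, had 267 and 302, 465 and 438, 229.8 and 290.5, and 215 and 184 CPM in the same order (0.67, SE 0.13, FDR 0.000291). In both, B6-13D2 was highest and D2-13B6 lowest. On chromosome 11 the anchor of Ncor1, a corepressor of nuclear receptors, and Pigl held 693 and 663, 986 and 922, 603 and 719, and 999 and 966 CPM. There both congenic lines lay above all 4 parental libraries, and so they did at Zmym4 (704 and 681, 1054 and 972, 560.1 and 681, and 859 and 836 CPM) and at Rtn4, a reticulon (563 and 637, 883 and 822, 523 and 679, and 824 and 789.5 CPM). No interval call was left at these 3 anchors with the abundance trend removed (FDR 0.115 to 0.706).

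Of the 8 members with too few counts for the test, 3 lay on chromosome 13 (chr13:65600001-65630000, chr13:66300001-66330000 and the anchor of 2410141K09Rik at chr13:66425001-66475000), with 1, 2 and 12 counts in all. The Nlrp4f and Gm48360 anchors lie on either side of them.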
